A study of Rattus norvegicus with 58 samples.

Results

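The comparison described here is kidney from male rats dosed with 4-methylcyclohexanemethanol (MCHM) at 300 mg/kg, on 4 arrays, against kidney from rats of the 0 mg/kg control group, on 5 arrays. These 9 arrays were taken from the 58 of the series by the organ and dose in their labels, and 29 of the 58 were kidney. All rats were Harlan Sprague-Dawley males treated by gavage, that is by tube into the stomach, with a labelled time of 5 days, and the control group carried the same labels at 0 mg/kg. The age of the rats and the vehicle in which the compound was given were absent from the labels used here. The other kidney groups, of 4 arrays each, received 0.1, 1, 10, 100 or 500 mg/kg, and the liver arrays have the same doses and group sizes. Arrays of a group are labelled biological replicates, and no label links a kidney to the liver of its rat. Each value is a deposited log2 RMA value (a background-corrected, normalized summary of the probes of a probe set), so that a difference of 1 is a doubling. Of 14217 genes named by a single symbol, 11204 were bright enough in kidney to be tested.

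MCHM is an alicyclic alcohol used in washing coal. The kidney filters blood in the glomerulus and recovers salt, glucose, amino acids and water along the proximal tubule, the loop of Henle and the distal tubule and collecting duct. Proximal tubule cells carry transporters for organic acids and drugs, burn fatty acids as their main fuel, and hold cytochrome P450 enzymes that oxidise small alcohols and fatty acids. Kidney tissue is embedded in fat, part of which is brown fat, a heat-producing tissue that burns fatty acids in mitochondria.

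The 9 arrays carried kidney transcripts at high level. Lrp2, the endocytic receptor megalin of the proximal tubule, ranged over 12.49 to 12.69 in dosed and 12.39 to 12.69 in control kidneys, against 6.07 to 7.08 on the liver arrays. Umod, the uromodulin gene of the loop of Henle, ranged over 12.84 to 13.44 in dosed and 12.88 to 13.79 in control kidneys. Array medians over all kidney arrays spanned 5.33 to 5.38. Arrays have no sequencing depth, and the precision is set by how many there are. Of 8 measures of array quality, 0 differed between 300 mg/kg and control after adjustment (smallest exact permutation p = 0.0317 for the array median, two-sided, adjusted over the 8 measures p = 0.254). The smallest p that this exact permutation test can give is 0.00794, so a single measure alone could not pass the adjustment over 8. A test between groups also does not show whether a single array stands apart.

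The third array at 300 mg/kg held transcripts of fat at levels far above those of the other 3. Ucp1, the uncoupling protein that defines brown fat, was at 4.86, 4.52, 13.80 and 4.87 on the 4 arrays at 300 mg/kg in replicate order and at 4.79, 4.43, 4.37, 4.54 and 4.63 in the controls. The brown fat lipid droplet gene Cidea was at 12.75 on that array, against 5.47 to 6.06 on the other 3 and 5.19 to 5.95 in the controls. Markers shared by all fat cells were high on the same array. The fatty acid carrier Fabp4 was at 13.34 there, against 6.03 to 6.63 on the other 3 and 6.07 to 8.36 in the controls, and the hormone adiponectin, Adipoq, at 10.03, against 4.61 to 4.87 on the other 3 and 4.61 to 6.17 in the controls.

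Not every fat marker was high on that array. Lep, the leptin gene, was at 3.86 there and Elovl3 at 2.35, both within the range of the control arrays (3.84 to 4.11 and 2.31 to 2.47). Both genes were too dim in kidney to be tested, as is any gene bright on fewer than 4 kidney arrays. Cox8b, a brown fat marker also too dim on most kidney arrays to be tested, was high there, at 11.95 against 3.97 to 4.38 in the controls. Cox7a1 was at 5.17, against 4.69 to 5.06 in the controls, and the lipase gene Lipe at 7.60, against 6.94 to 7.57. Averaged over 20 measured adipose genes, that array was at 10.55, against 6.73, 6.81 and 6.87 on the other 3 and 6.69 to 7.29 in the controls. The highest control value, 7.29, was that of control replicate 1, which also held the highest control values of Fabp4, Adipoq and the fat cell protease Cfd (6.08). Of the 27 kidney arrays other than that one and the third array at 500 mg/kg, where Ucp1 was at 12.40, the highest Ucp1 value was 7.34.

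**Figure D1:**
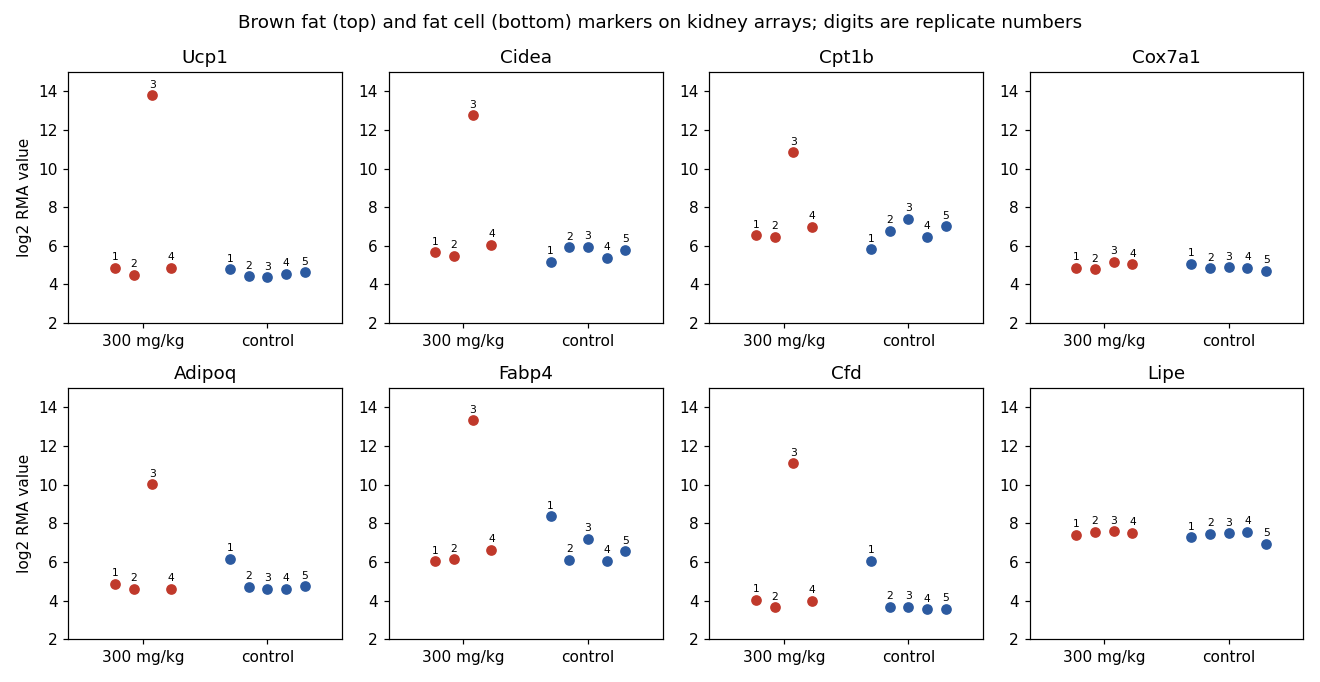
Log2 RMA values of 4 brown fat markers (top) and 4 fat cell markers (bottom) on the kidney arrays at 300 mg/kg (red, left) and in control (blue, right), with each point an array and the digit its replicate number. Replicate 3 at 300 mg/kg lies far above all other points for Ucp1, Cidea, Cpt1b, Adipoq, Fabp4 and Cfd, close to them for Cox7a1 and Lipe, and control replicate 1 lies above the other controls for Adipoq, Fabp4 and Cfd.

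Across all genes, 138 lay at least 1 log2 unit higher on that array than the mean of the other 3 arrays at 300 mg/kg and 34 at least 1 lower. For the other 3 arrays the same count of higher genes was 6, 19 and 16, and that of lower genes 51, 31 and 35. The mean against which each of those 3 arrays was set includes replicate 3, so its high fat transcripts can count as lower on them. The counts of lower genes therefore cannot show whether replicate 3 stood apart. The SD at 300 mg/kg was over 1 for 61 genes with that array and for 13 without it, and the SD of the controls was over 1 for 27. The counts of called genes and the gene lists are therefore given with and without replicate 3.

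One control array carried transcripts of liver cells. Albumin, Alb, was at 10.19 on control replicate 2, against 3.75 to 5.93 on the other 4 controls and 3.90 to 7.28 at 300 mg/kg, with 14.65 to 14.71 on liver arrays. The mean of 13 measured hepatocyte genes, a list chosen after seeing the data, was 7.06 on that control and lay between 5.10 and 5.32 on the other 4. It was 5.06 to 5.41 on the arrays at 300 mg/kg.

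Of the 11204 genes tested, 3 passed (0.0268% of all genes tested), 1 higher (0.00893%) and 2 lower (0.0179%) at 300 mg/kg. Akr1e2, an aldo-keto reductase, rose, and Proc and Asap2 fell. Proc encodes protein C, a vitamin K-dependent plasma protein that in its active form degrades clotting cofactors and is made mainly in liver. Asap2 encodes an activator of GTP hydrolysis by the small GTPases of the Arf family, which steer membrane traffic. The test was limma's moderated test over all 29 kidney arrays with Benjamini-Hochberg adjustment over all genes tested, two-sided, and a gene passed at an adjusted p under 0.05. Without replicate 3 the number was 0 (0% of 11204 genes), with 377 genes at an unadjusted p under 0.05 (3.36%), 180 higher (1.61%) and 197 lower (1.76%). With all arrays 643 genes had an unadjusted p under 0.05 (5.74%), 317 higher (2.83%) and 326 lower (2.91%).

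The sequence just before the start of these 3 genes is shown because they are the genes that passed. Each is the 250 bases before the annotated transcription start in RefSeq's rat assembly GRCr8, 5′ to 3′ on the strand of the gene, and capitals mark matches on either strand to 3 short motifs. The first motif was CCAAT, a common promoter element bound by the factor NF-Y. The second, TATAAA, is the element that positions the start of transcription in some genes. The third, ATTAAC, is part of the site that HNF1 factors of liver and kidney bind. They are Akr1e2 at chr17:70645632-70645881 on the plus strand, Proc at chr18:24048942-24049191 on the minus strand and Asap2 at chr6:46386355-46386604 on the plus strand.
Akr1e2: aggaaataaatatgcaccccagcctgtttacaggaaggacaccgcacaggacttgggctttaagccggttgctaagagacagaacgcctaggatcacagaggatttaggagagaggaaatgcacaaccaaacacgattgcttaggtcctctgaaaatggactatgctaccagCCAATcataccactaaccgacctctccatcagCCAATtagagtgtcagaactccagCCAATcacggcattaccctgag
Proc: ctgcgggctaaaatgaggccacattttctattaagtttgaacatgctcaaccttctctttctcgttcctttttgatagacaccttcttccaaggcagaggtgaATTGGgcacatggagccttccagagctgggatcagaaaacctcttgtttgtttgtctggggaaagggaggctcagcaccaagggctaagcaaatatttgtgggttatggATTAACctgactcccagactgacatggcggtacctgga
Asap2: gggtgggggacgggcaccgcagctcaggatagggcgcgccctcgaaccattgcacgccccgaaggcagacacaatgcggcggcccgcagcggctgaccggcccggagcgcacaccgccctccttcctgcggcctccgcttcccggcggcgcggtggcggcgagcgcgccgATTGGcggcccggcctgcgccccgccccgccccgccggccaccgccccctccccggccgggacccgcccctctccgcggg

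The Akr1e2 window held 3 CCAAT matches, beginning 78, 46 and 22 bases before the start, and 34% of all 33469 rat promoter windows of this length held at least 1. Proc and Asap2 held 1 such match each, at 147 and 80 bases before the start. Proc also held 1 ATTAAC match 38 bases before the start, a motif found in 6.45% of all windows, and TATAAA, found in 12.9%, was in 0 of the 3. These matches describe the sequence only.

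Proc was at 8.27, 8.30, 8.30 and 8.17 at 300 mg/kg in replicate order and at 8.71, 8.55, 8.89, 8.80 and 8.90 in control kidneys. All 4 dosed arrays lay below all 5 controls, and replicate 3 lay among the other dosed arrays. The mean was 8.26 ± 0.06 (SD, n = 4) at 300 mg/kg and 8.77 ± 0.14 (SD, n = 5) in control, a log2 difference of -0.51 (SE 0.09, limma adjusted p = 0.028), or 0.701 times the control level. Without replicate 3 the difference was -0.52 (SE 0.10, adjusted p = 0.234). Control replicate 2, which held the liver transcripts, had the lowest Proc value of the 5 controls. Without it Proc alone passed.

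Akr1e2 was at 9.97, 9.96, 10.16 and 10.03 at 300 mg/kg and at 9.69, 9.77, 9.77, 9.75 and 9.85 in control kidneys. The groups did not overlap, and replicate 3 had the highest value. The mean was 10.03 ± 0.09 (SD, n = 4) at 300 mg/kg and 9.77 ± 0.06 (SD, n = 5) in control, a log2 difference of 0.26 (SE 0.05, limma adjusted p = 0.028). Without replicate 3 it was 0.22 (SE 0.05, adjusted p = 0.243).

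Asap2 was at 7.85, 7.90, 7.89 and 7.98 at 300 mg/kg and at 8.13, 8.28, 8.46, 8.12 and 8.23 in control kidneys. Here too every dosed array lay below every control. The log2 difference was -0.33 (SE 0.06, limma adjusted p = 0.028) with all arrays and -0.33 (SE 0.07, adjusted p = 0.234) without replicate 3. Each of the 3 genes was measured by a single named probe set. None reached 1.5-fold, and leaving out any of the 4 dosed arrays, or control replicate 1 or 3, gave 0 calls. Without control replicate 4 Asap2 alone passed, and without control replicate 5 Akr1e2 alone.

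The other kidney doses place these values. Proc means were 8.77 in control, 8.91 at 0.1 mg/kg, 8.82 at 1 mg/kg, 8.87 at 10 mg/kg, 8.75 at 100 mg/kg, 8.26 at 300 mg/kg and 8.39 at 500 mg/kg, with SDs of 0.06 to 0.18. The 4 highest-dose arrays, at 8.26 to 8.58, overlapped the lowest values of the control and of 100 mg/kg, which began at 8.55 and 8.57, while those at 300 mg/kg did not. Akr1e2 means were 9.77 in control, between 9.81 and 9.85 at the 4 doses up to 100 mg/kg, 10.03 at 300 mg/kg and 9.98 at 500 mg/kg. Asap2 means were 8.24 in control, 8.06 to 8.16 at the 4 lower doses, 7.91 at 300 mg/kg and 8.11 at 500 mg/kg, so that the mean at 300 mg/kg was the lowest and the control mean the highest.

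**Figure D2:**
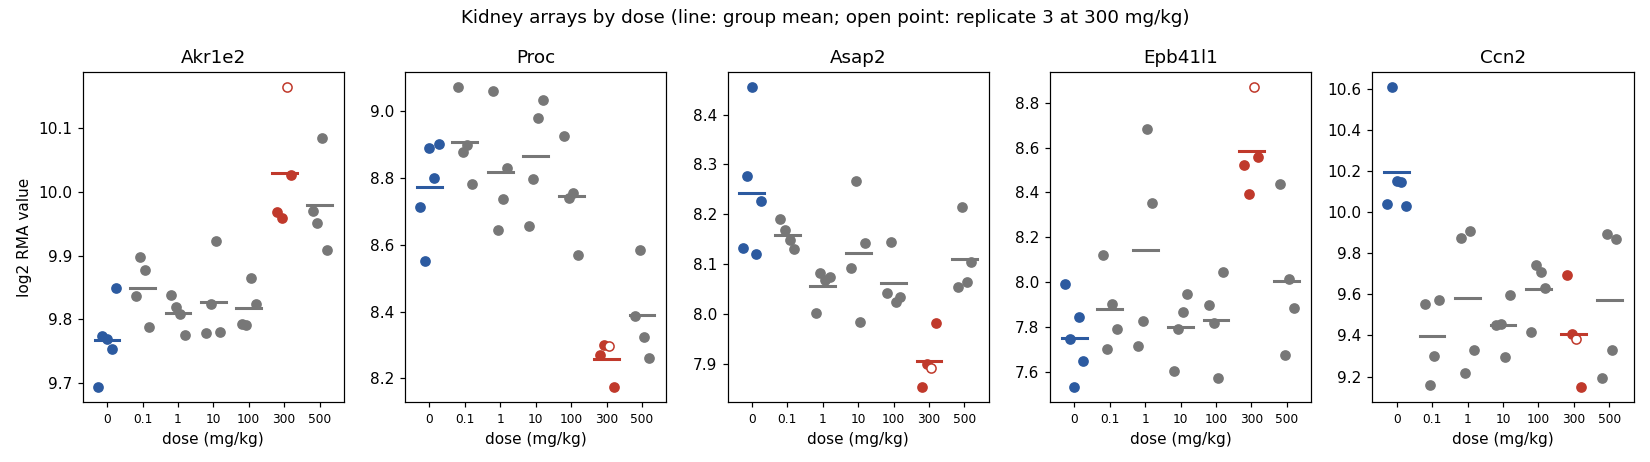
Log2 RMA values of 5 genes on all kidney arrays by dose in mg/kg, with each point an array, the line the group mean, red 300 mg/kg, blue control and the open point replicate 3 at 300 mg/kg. Proc at 300 mg/kg lies at 8.17 to 8.30, below every array of the control and of the 4 lower doses, and Ccn2 is highest in control and lower at every dose.

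A comparison with the 4 lower doses, chosen after seeing the data, leaves the 5 controls out of the means compared, though they remain in the fit and enter the estimate of the spread. Against the mean of the groups at 0.1 to 100 mg/kg, 1 gene passed (0.00893% of all genes tested), Proc, with a log2 difference of -0.58 (SE 0.08, limma adjusted p = 0.000619). Proc passed again with each dosed array left out in turn (adjusted p between 0.00376 and 0.0157), at -0.59 (adjusted p = 0.00517) without replicate 3. The dosed values are the same by which Proc passed against control, so this is not an independent test of the gene. Akr1e2 differed from the lower doses by 0.20 (SE 0.04, adjusted p = 0.0552) and Asap2 by -0.19 (SE 0.05, adjusted p = 0.248).

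Just outside the threshold lay Epb41l1 and Ccn2. Epb41l1 encodes an adaptor of the protein 4.1 family that links membrane proteins to the actin and spectrin skeleton. It was at 8.52, 8.39, 8.87 and 8.56 at 300 mg/kg and at 7.99, 7.75, 7.53, 7.84 and 7.65 in control kidneys, so the groups did not overlap. The log2 difference was 0.83 (SE 0.16, limma adjusted p = 0.0589), and 0.74 (SE 0.17, adjusted p = 0.418) without replicate 3. The 2 other probe sets named Epb41l1 differed by -0.02 (SE 0.10) and -0.04 (SE 0.10), the second too dim to be tested, so the probe sets of this gene disagree.

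Ccn2 encodes connective tissue growth factor, a matrix-associated protein induced by TGF beta and by the YAP and TAZ coactivators. It was at 9.69, 9.40, 9.38 and 9.15 at 300 mg/kg and at 10.04, 10.61, 10.15, 10.14 and 10.03 in control kidneys. The ranges did not overlap, and control replicate 2 was the highest array. The log2 difference was -0.79 (SE 0.16, limma adjusted p = 0.071), and -0.78 (SE 0.17, adjusted p = 0.301) without replicate 3. Against the 4 lower doses Ccn2 at 300 mg/kg differed by -0.11 (SE 0.13, adjusted p = 0.892), and those doses themselves differed from control by -0.68 (SE 0.12, adjusted p = 0.061).

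The next smallest p-values among genes with a higher mean included those of Cyp2e1, Cyp4a1 and Hpd, and none of them passed. Cyp2e1, the cytochrome P450 that oxidises ethanol and other small solvents, was at 11.57, 11.36, 11.42 and 11.61 at 300 mg/kg and at 11.21, 11.30, 10.81, 10.67 and 10.45 in control kidneys. The lowest dosed array lay just above the highest control, and the controls spread from 10.45 to 11.30. The log2 difference was 0.60 (SE 0.15, limma adjusted p = 0.5), or 1.52 times the control level, and 0.63 (SE 0.17, adjusted p = 1.00) without replicate 3. At 500 mg/kg Cyp2e1 had a mean of 11.49, equal to that at 300 mg/kg to 2 decimals.

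Cyp4a1, a fatty acid omega-hydroxylase induced through the receptor PPAR alpha, was at 10.60, 10.37, 10.53 and 10.33 at 300 mg/kg and at 10.17, 9.88, 9.77, 10.12 and 9.92 in control kidneys. All dosed arrays lay above the controls, with a log2 difference of 0.49 (SE 0.12, limma adjusted p = 0.5) and 0.47 (SE 0.14) without replicate 3. Eci1, a mitochondrial isomerase of fatty acid oxidation, was at 11.86 on replicate 3 and at 10.97 to 11.04 on the other 3 arrays at 300 mg/kg, against 10.46 to 10.70 in control kidneys. Its difference of 0.66 (SE 0.17) with replicate 3 was 0.45 (SE 0.15) without it, with no overlap of the groups in either case. The carboxylesterase Ces1d likewise differed by 0.65 (SE 0.17) with replicate 3, where it was at 10.34 against 9.17 to 9.37 on the other 3 dosed arrays and 8.57 to 9.14 in the controls, and by 0.37 (SE 0.12) without it.

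Hpd, which degrades tyrosine by making homogentisate, was at 12.38, 12.32, 12.33 and 12.40 at 300 mg/kg and at 12.23, 12.10, 12.03, 12.07 and 12.09 in control kidneys. The groups did not overlap (log2 difference 0.25, SE 0.07, limma adjusted p = 0.5). The other genes with the smallest p among those higher were Man2c1, a cytosolic mannosidase (0.21, SE 0.05), the transcription elongation factor Elof1 (0.19, SE 0.05) and Ccar2, an inhibitor of the deacetylase Sirt1 (0.18, SE 0.05), with adjusted p of 0.5 to 0.549. Their groups did not overlap either. Other probe sets named Man2c1 differed by less, by 0.17 (SE 0.10) and 0.08 (SE 0.10). Over all genes 155 had ranges that did not overlap (1.38%), 80 higher (0.714%) and 75 lower (0.669%).

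Among genes with a lower mean, the smallest p-values after Ccn2 belonged to Chm, Cabcoco1, Slc25a4, Neto2, Shtn1, Slc35f5 and Rab1a, and none of them passed. Chm encodes an escort protein that carries Rab GTPases to lipid attachment, and Rab1a the Rab GTPase of transport out of the endoplasmic reticulum. Chm was at 5.38, 5.45, 5.72 and 5.61 at 300 mg/kg and at 5.81 to 6.08 in control kidneys (log2 difference -0.40, SE 0.09, limma adjusted p = 0.395). Rab1a differed by -0.14 (SE 0.04, adjusted p = 0.606) and the mitochondrial ADP/ATP carrier Slc25a4 by -0.15 (SE 0.04, adjusted p = 0.5). Neto2, an auxiliary subunit of kainate receptors, differed by -0.54 (SE 0.14), Cabcoco1 by -0.31 (SE 0.08), Shtn1 by -0.30 (SE 0.08) and Slc35f5 by -0.21 (SE 0.06). The groups did not overlap for Chm, Rab1a and Neto2 and overlapped for the other 4. Another probe set named Neto2 differed by -0.40 (SE 0.27).

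Without replicate 3 the genes with the smallest p were in part others, and 0 passed. Aadac, an esterase of the endoplasmic reticulum, was at 7.12, 7.61, 6.98 and 7.76 at 300 mg/kg and at 6.88, 6.82, 6.40, 7.13 and 6.43 in control kidneys. It differed by 0.76 without replicate 3 and by 0.63 with it (limma adjusted p = 1.00 and 0.698). The galectin Lgals2 differed by 0.67 without replicate 3 and by 0.51 with it, and complement factor I, Cfi, by 0.53 and 0.44. The transcriptional repressor Snai1 differed by 0.36 and 0.26, and the ribosomal protein gene Rpl27 by 0.14 and 0.11. Among genes with a lower mean were Btg3, an antiproliferative protein (-0.41 without replicate 3 and -0.31 with it), Smad4, the shared mediator of TGF beta signals (-0.20 and -0.15), and the mRNA export factor Alyref (-0.39 and -0.30). Prr15 differed by -0.34 and -0.31, and Rbm15b by -0.35 and -0.31, where replicate 1 was at 5.82 and the other 3 dosed arrays at 6.22 to 6.23. The ranges did not overlap for 286 genes without replicate 3 (2.55%). Compared with the lower doses, Aadac at 300 mg/kg with replicate 3 differed by 0.20 (SE 0.17), Lgals2 by 0.12 (SE 0.15) and Cfi by 0.33 (SE 0.12). Those lower doses themselves differed from control by 0.43 (SE 0.16), 0.40 (SE 0.14) and 0.11 (SE 0.11) for the same genes.

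**Figure D3:**
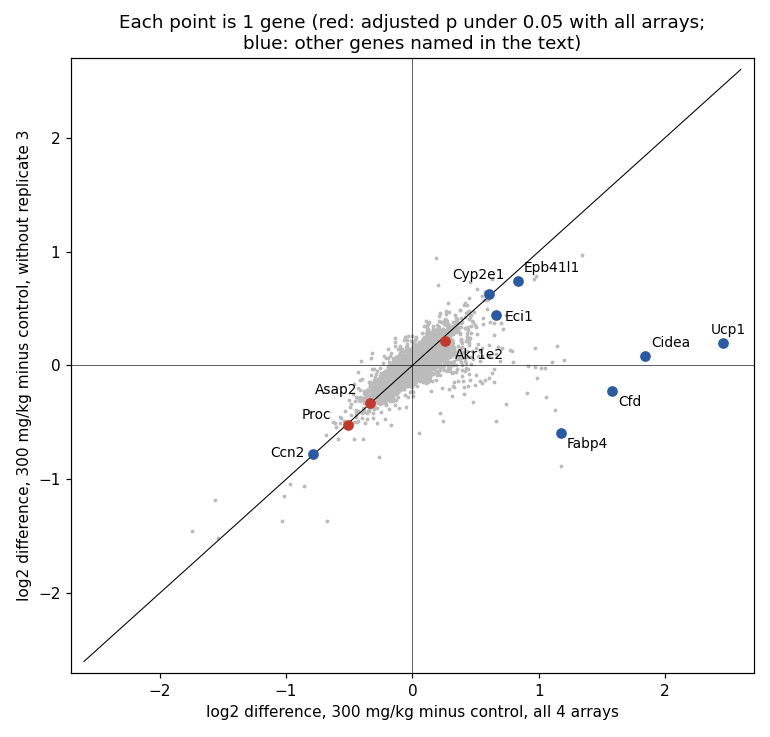
Log2 difference between 300 mg/kg and control kidney with all 4 dosed arrays (x axis) and without replicate 3 (y axis), with each point a gene, the diagonal the line of equal values, red the 3 genes that passed with all arrays and blue 8 other genes named in the text. Proc, Asap2, Ccn2 and Cyp2e1 lie near the diagonal, while Ucp1, Cidea, Cfd and Fabp4 lie far below it.

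Gene lists were read by their counts and medians beside those of all genes, of which 48.8% had a difference above 0, with a median of -0.0025, and 49.9% without replicate 3. Of the members of these lists, 0 passed the adjusted test, and the counts that follow use an unadjusted p under 0.05. Of all genes tested, 2.83% were higher and 2.91% lower at that threshold with all arrays, and 1.61% and 1.76% without replicate 3. The counts of members are to be read beside these shares. Fat transcripts moved with replicate 3. All 20 measured adipose genes were above 0 with all arrays (median 0.86) and 9 of 20 without replicate 3 (median -0.01). Ucp1 differed by 2.46 (SE 1.40, limma adjusted p = 0.847) with that array and by 0.19 without it.

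Of 30 genes of fatty acid oxidation and PPAR alpha targets, 25 were above 0 with all arrays (median 0.19) and 16 without replicate 3 (median 0.01). With all arrays 5 were higher and 1 lower at an unadjusted p under 0.05, and without replicate 3 it was 3 and 1. Besides Eci1 and Cyp4a1, the peroxisome division gene Pex11a differed by 0.32 (SE 0.10) and by 0.17 without replicate 3. Cpt1a, the enzyme that admits long-chain fatty acids to mitochondria, ran the other way, at 9.83, 10.28, 9.81 and 9.98 at 300 mg/kg and 10.12 to 10.39 in control kidneys (log2 difference -0.27, SE 0.08, adjusted p = 0.698). The list mean per array was 9.55, 9.58, 10.27 and 9.51 at 300 mg/kg in replicate order and 9.48 to 9.54 in control.

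Fatty acid and triglyceride synthesis followed the same array. Of 20 genes 17 were above 0 with all arrays (median 0.16), 4 of them at an unadjusted p under 0.05, and 8 without replicate 3 (median -0.03). The elongase Elovl6 differed by 0.39 (SE 0.17) and by 0.10 without replicate 3, and the desaturase Fads1 by 0.38 (SE 0.15) and 0.28. Of 31 subunits of oxidative phosphorylation, 26 were above 0 (median 0.06), 4 of them at an unadjusted p under 0.05, and 21 without replicate 3 (median 0.01), 0 of them past that threshold. The list means of these 2 groups on replicate 3, 9.25 and 12.23, were the highest of the 9 arrays. The part of fat transcripts in these values was not tested.

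**Figure D4:**
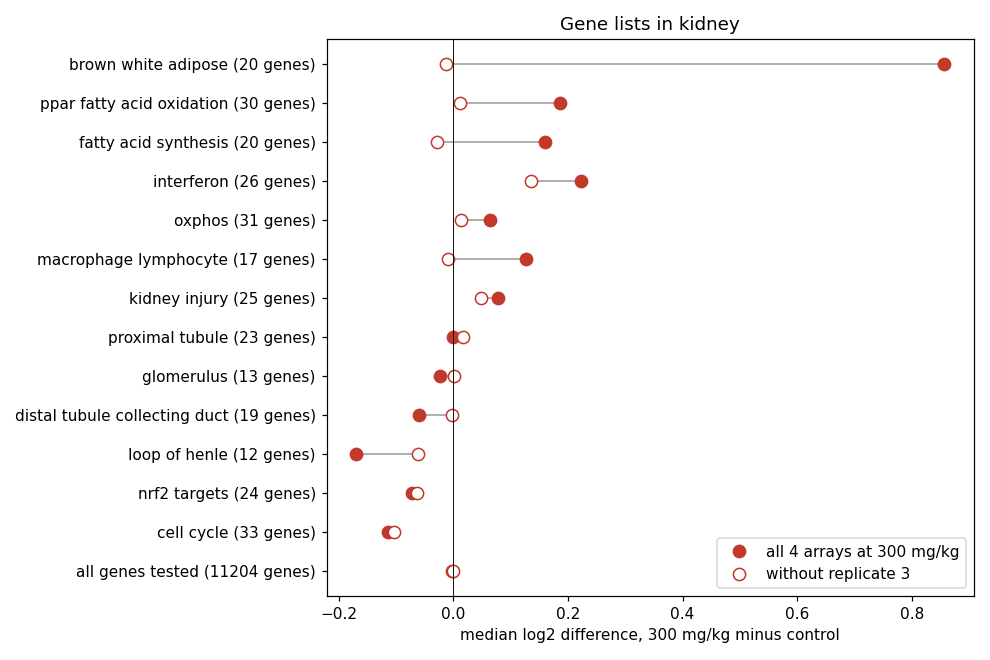
Median log2 difference between 300 mg/kg and control kidney over the measured genes of 13 lists and of all genes tested, with all 4 dosed arrays (filled) and without replicate 3 (open). The adipose list lies at 0.86 with and at -0.01 without replicate 3, the loop of Henle list at -0.17 and -0.06, and the cell cycle list at -0.11 and -0.10.

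Markers of the nephron segments were read to see whether a part of the kidney was lower or higher in the dosed samples, where fewer cells of a type and less RNA per cell cannot be told apart. Of 23 proximal tubule genes 12 were above 0 (median 0.0003), and 14 without replicate 3. Cyp2e1 was the 1 gene at an unadjusted p under 0.05 and higher, and 2 were lower. These were the monocarboxylate transporter Slc16a9, at 8.72, 8.74, 8.59 and 8.89 at 300 mg/kg and 9.01 to 9.39 in control kidneys (log2 difference -0.48, SE 0.14, limma adjusted p = 0.67), and the aminotransferase Agxt2 (-0.12, SE 0.05, adjusted p = 0.831). The groups did not overlap for either.

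Of 12 loop of Henle genes 0 were above 0 with all arrays (median -0.17), and 5 without replicate 3 (median -0.06). Kcnj1, the potassium channel of the thick ascending limb, was at 8.20, 8.21, 7.84 and 8.65 at 300 mg/kg and at 8.30, 8.48, 9.23, 8.71 and 8.47 in control kidneys, with the lowest value on replicate 3 (log2 difference -0.41, SE 0.18, limma adjusted p = 0.831). The list mean was 8.13 on replicate 3 and 8.50 to 8.80 on the other 3 dosed arrays, against 8.21 to 9.22 in control. Of 19 genes of the distal tubule and collecting duct 5 were above 0 (median -0.06), and 9 without replicate 3. Aqp3, a basolateral water channel, differed by -0.39 (SE 0.13, adjusted p = 0.698) and by -0.24 without replicate 3, and Foxi1, the transcription factor of intercalated cells, by -0.37 (SE 0.16) and -0.22. Of 13 glomerular genes 4 were above 0 with all arrays (median -0.02) and 8 without replicate 3 (median 0.0016), with 0 at an unadjusted p under 0.05 in either case.

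Markers of tubular injury did not pass. Of 25 measured, 14 were above 0 (median 0.08), 3 at an unadjusted p under 0.05 and higher and 1 lower. Without replicate 3 it was 16 above 0 (median 0.05), 2 higher and 0 lower. Clusterin, Clu, a chaperone raised in damaged tubules, was at 8.94, 9.33, 9.19 and 9.51 at 300 mg/kg and at 9.16, 8.88, 8.92, 8.75 and 8.72 in control kidneys (log2 difference 0.36, SE 0.12, limma adjusted p = 0.776). The groups overlapped through control replicate 1, which was above the lowest dosed array. Mdk, a heparin-binding growth factor, differed by 0.27 (SE 0.11) and by 0.31 without replicate 3, and the chemokine Ccl2 by 0.62 (SE 0.26) and 0.38. Keratin 8, Krt8, differed by -0.20 (SE 0.08).

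Of 24 targets of Nrf2, the transcription factor of the antioxidant response, 7 were above 0 (median -0.07), and 9 without replicate 3. At an unadjusted p under 0.05, 3 were lower and 0 higher with all arrays, and 5 lower and 1 higher without replicate 3. Gstp1, a glutathione transferase, was at 12.16, 12.01, 11.63 and 11.95 at 300 mg/kg and at 12.10, 12.39, 12.80, 12.51 and 12.71 in control kidneys (log2 difference -0.56, SE 0.20, limma adjusted p = 0.776). The groups overlapped through control replicate 1. Akr1b8, another aldo-keto reductase, differed by -0.44 (SE 0.16, adjusted p = 0.793) and glutathione reductase, Gsr, by -0.19 (SE 0.08, adjusted p = 0.831).

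Of 18 enzymes that oxidise alcohols and aldehydes, the class of reaction open to a primary alcohol such as MCHM, 6 were above 0 (median -0.05), and 9 without replicate 3. With all arrays Cyp2e1 and the aldehyde oxidase Aox1 (0.46, SE 0.19) were higher and Aldh6a1, of valine breakdown, lower (-0.18, SE 0.07) at an unadjusted p under 0.05, and without replicate 3 it was 1 higher and 0 lower. Of 12 targets of the xenobiotic receptors CAR and PXR 5 were above 0 with all arrays (median -0.03) and 8 without replicate 3 (median 0.04). For 8 targets of the receptor AhR it was 4 (median 0.0095) and 3 without replicate 3 (median -0.06), and for 16 genes of conjugation 7 (median -0.02) and 5 (median -0.03). In these 3 lists 0 genes had an unadjusted p under 0.05 with all arrays. Without replicate 3 the CAR and PXR list and the AhR list had 1 lower each, and the conjugation list 1 higher and 1 lower. Among 26 organic anion and cation transporters, 9 were above 0 with all arrays (median -0.05) and 15 without replicate 3 (median 0.06), so the sign of the median turned. At an unadjusted p under 0.05, 1 transporter was higher and 2 lower with all arrays, and 1 and 0 without replicate 3. Slco2a1, a prostaglandin transporter, differed by 0.24 (SE 0.09), with no overlap of the groups, and the efflux pump Abcg2 by -0.19 (SE 0.07).

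Of 33 cell cycle genes 5 were above 0 with all arrays (median -0.11) and 8 without replicate 3 (median -0.10). At an unadjusted p under 0.05, 3 were lower and 0 higher, and without replicate 3 it was 2 and 0. The phosphatase Cdkn3 was at 6.23, 6.48, 5.83 and 6.41 at 300 mg/kg and at 6.93, 6.72, 6.53, 6.65 and 7.02 in control kidneys (log2 difference -0.53, SE 0.20, limma adjusted p = 0.817), without overlap. The mitotic kinesin Kif20a differed by -0.34 (SE 0.14, adjusted p = 0.831). The list mean per array was 6.31 to 6.38 at 300 mg/kg and 6.28 to 6.60 in control, so the groups overlapped through control replicate 3.

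Of 26 interferon response genes 23 were above 0 with all arrays (median 0.22) and 22 without replicate 3 (median 0.14), with 1 and 0 at an unadjusted p under 0.05. The list mean was 6.06, 6.60, 6.92 and 6.58 at 300 mg/kg and 6.50, 6.11, 6.35, 6.27 and 6.28 in control. The first dosed array thus lay below every control and the other 3 above. Ifi27 differed by 0.38 (SE 0.18, limma adjusted p = 0.841) and by 0.15 without replicate 3. The chemokine Cxcl10 differed by 0.44 (SE 0.22) and by 0.24, and Rtp4 by 0.50 (SE 0.28) and 0.34. Markers of macrophages and lymphocytes had 10 of 17 above 0 (median 0.13), and 8 without replicate 3 (median -0.0089).

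Markers of other tissues that a kidney sample can hold were also read. Of 20 endothelial and stromal genes 15 were above 0 (median 0.07), and 11 without replicate 3 (median 0.04). Urothelial genes, of the lining of the renal pelvis, had 0 of 4 above 0 (median -0.21), and 1 without replicate 3 (median -0.11). For 3 measured adrenal genes the count was 1 (median -0.06), and 0 without replicate 3 (median -0.12). For 4 erythroid genes it was 3 (median 0.09), and 3 without replicate 3 (median 0.04). Of 18 circadian clock genes 12 were above 0 (median 0.08), and 13 without replicate 3 (median 0.13), with 0 at an unadjusted p under 0.05 in either case. Heat shock genes had 5 of 15 above 0 (median -0.10), and 4 without replicate 3 (median -0.04). Genes of vitamin D and calcium handling had 2 of 12 above 0 (median -0.08), and 2 without replicate 3 (median -0.07). Both lists had 0 past that threshold with and without the array.

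Single members of other lists with small p-values are given as values. Mt1, a metal-binding metallothionein, was at 6.07, 6.37, 6.40 and 6.61 at 300 mg/kg and at 5.63, 5.73, 5.97, 5.76 and 5.74 in control kidneys, without overlap (log2 difference 0.60, SE 0.22, limma adjusted p = 0.807). The growth factor Vegfa differed by 0.21 (SE 0.07) and the laminin chain Lama3 by 0.29 (SE 0.11), both without overlap. Pklr, the pyruvate kinase of liver and proximal tubule, differed by -0.45 (SE 0.15) with and -0.45 without replicate 3. Asns, asparagine synthetase, differed by 0.72 (SE 0.26) with replicate 3, where it was at 8.11, and by 0.32 without it. Fdft1, squalene synthase, differed by 0.19 (SE 0.08) with and by 0.25 without replicate 3. Compared with the lower doses, Mt1 at 300 mg/kg differed by 0.23 (SE 0.18), Vegfa by 0.11 (SE 0.06) and Lama3 by -0.02 (SE 0.10). Those lower doses themselves differed from control by 0.36 (SE 0.17), 0.10 (SE 0.05) and 0.32 (SE 0.09) for the same genes.

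Whether kidney and liver differed in their response to 300 mg/kg was tested over all 58 arrays. Of 10673 genes bright enough in both organs 0 passed, with 587 at an unadjusted p under 0.05 (5.5%), 339 with a higher and 248 with a lower value in kidney (3.18% and 2.32%). Without the 2 kidney arrays high in fat transcripts, 1 at 300 and 1 at 500 mg/kg, 0 passed and 461 had an unadjusted p under 0.05. Proc was far higher in liver than in kidney, with liver means of 12.30 ± 0.04 (SD, n = 4) at 300 mg/kg and 12.38 ± 0.06 (SD, n = 5) in control. Its kidney difference in this fit was -0.51 (SE 0.07) and its liver difference -0.07 (SE 0.07), and the difference between the organs was -0.44 (SE 0.10, limma adjusted p = 0.252).

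Asap2 differed by -0.33 (SE 0.09) in kidney and by 0.23 (SE 0.09) in liver, an organ difference of -0.57 (SE 0.12, limma adjusted p = 0.171). Sqstm1, an autophagy receptor and Nrf2 target, was at 11.12 at 300 mg/kg and 11.20 in control in kidney, a difference of -0.09 (SE 0.07), against 0.36 (SE 0.07) in liver (organ difference -0.44, adjusted p = 0.171). For Akr1e2 the difference was 0.26 (SE 0.07) in kidney and -0.05 (SE 0.07) in liver (organ difference 0.31, adjusted p = 0.619). For Epb41l1 it was 0.83 (SE 0.16) in kidney and -0.05 (SE 0.16) in liver (organ difference 0.88, adjusted p = 0.342). None of these organ differences passed, so a different response in the organs was not shown for any of these genes.

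**Figure D5:**
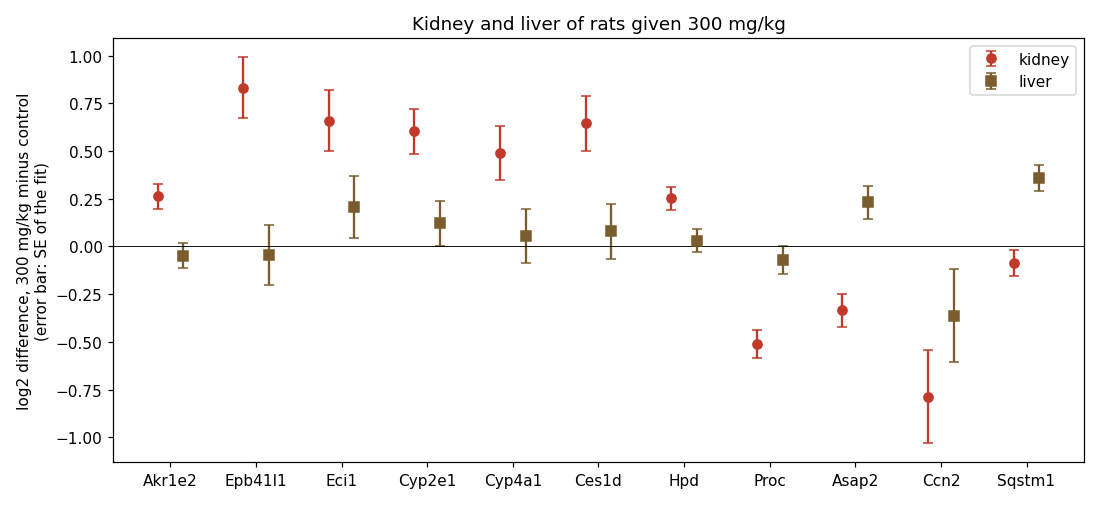
Log2 difference between 300 mg/kg and control in kidney (red circles, left) and liver (brown squares, right) for 11 genes, with the SE of the fit over 58 arrays as error bars. Proc, Asap2 and Ccn2 lie below 0 in kidney, Asap2 lies above 0 in liver and Sqstm1 is higher in liver than in kidney, and 0 of the organ differences passed the adjusted test.

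The direct comparison of 300 with 500 mg/kg in kidney gave 0 genes past the adjusted test, with 515 at an unadjusted p under 0.05 (4.6%), 155 higher and 360 lower at 300 mg/kg (1.38% and 3.21%). Each of these groups held 1 array high in fat transcripts, and without both arrays 0 genes passed and 284 had an unadjusted p under 0.05. The smallest p-values belonged to Ccnq, a cyclin (log2 difference -0.27), Wee1, the kinase that holds back entry into mitosis (-0.45), and Xrcc4, a factor of DNA end joining (-0.32), each with a limma adjusted p = 0.981. Proc differed between 300 and 500 mg/kg by -0.13, Akr1e2 by 0.05 and Asap2 by -0.20, with an adjusted p of 0.981 for each. Epb41l1 was higher at 300 than at 500 mg/kg by 0.58 (adjusted p = 0.981). Hpd was the gene of these that passed at 500 mg/kg against control, with a difference of 0.48 (SE 0.07, adjusted p = 0.00104). Its mean was 12.59 at 500 mg/kg, 12.36 at 300 mg/kg and 12.10 in control. Against the lower doses Hpd at 300 mg/kg differed by 0.06 (SE 0.06, limma adjusted p = 0.81). Those lower doses themselves differed from control by 0.19 (SE 0.05, adjusted p = 0.348).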

How the data were processed

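RNA was hybridised to Affymetrix rat genome arrays, and the authors deposited log2 values from RMA, a version of which the submitters' processing notes do not state. It is unknown here if both organs were normalized as a single set, and the values themselves (1.75 to 14.85) showed the log2 scale. The table held 31099 probe sets on 58 arrays, with 0 unmapped sample columns; 20826 had 1 gene symbol in the platform annotation and 436 several. A probe set was kept if above its array's 40th percentile on at least 4 kidney arrays (19675 kept), and the brightest stood for a gene.

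Tests used limma 3.58.1 under R 4.3.3 (lmFit, eBayes with an intensity trend), with Benjamini-Hochberg adjustment. The same limma steps were tested on simulated data. Array quality used an exact permutation test over 126 splits. No arrays held identical values. Same-numbered arrays did not deviate together (correlations -0.21, -0.01, -0.12 and 0.01). The genes named were those past the test, the 10 smallest p each way with and without replicate 3, the 3 smallest p of the other comparisons and up to 4 members per list. Kidney and hepatocyte marker genes were chosen after seeing the data. The comparison, members and lists were chosen with earlier results of these data known. Alternatives are given at the end.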

Additional observations from a re-analysis of the deposited data

Results flagged for a closer look

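In 17 of 164 groups examined, 1 array stood apart by more than the Dixon limit for its group size, a limit that chance passes in about 1 group in 20. The value given is the gap to the nearest array as a share of the group's range. The genes examined include fat markers named because replicate 3 was high in them, so the count cannot be read against that share. In 9 of them replicate 3 at 300 mg/kg was that array. It was the highest for Ucp1 (0.962), Adipoq (0.953), Cfd (0.949), Cidea (0.919), Eci1 (0.919), Fabp4 (0.918), Cidec (0.912) and Cpt1b (0.881), and the lowest for Fdft1 (0.968), and all of these except Eci1 and Fdft1 are fat markers. Another array at 300 mg/kg stood apart in 2, replicate 1 as the lowest for Rbm15b (0.984) and replicate 2 as the lowest for Cry1 (0.866). In control, replicate 1 was the highest for Cfd (0.948) and Adipoq (0.91), replicate 2 the highest for Ccn2 (0.792) and the lowest for Slc25a4 (0.742), replicate 3 the lowest for Gpd1 (0.72) and replicate 4 the highest for Cry1 (0.806). Ccn2, as the highest, and Slc25a4, as the lowest, stood apart on the control array with liver transcripts. Both genes were lower in liver than in kidney. The control means were 6.57 in liver and 10.2 in kidney for Ccn2, and 7.70 and 11.99 for Slc25a4. The part of the liver transcripts was not tested.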

How the results depend on the processing

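The count of 3 called genes (Akr1e2, Proc and Asap2) was 3 with no filter, with robust eBayes, after quantile or cyclic loess normalization and without the 500 mg/kg array high in fat transcripts. It was 4 with the 60th percentile filter, which added Epb41l1, and 4 with the mean over probe sets, which added Igip, a gene named after its value was seen. It was 0 over all probe sets, with only the compared groups in the fit, with no intensity trend, with array quality weights, with the brown fat list mean as a covariate and at a 1.5-fold minimum, and 0 to 1 with each array left out in turn. With the replicate number as a block it was 1, Akr1e2, in samples whose numbers do not pair them. Without replicate 3 the count was 0 under every alternative run, the replicate block included. The difference between kidney and liver gave 0 calls, or 0 to 1 with each array left out in turn (1, Asap2, without liver control replicate 4), and 300 against 500 mg/kg gave 0 throughout. The comparison with the lower doses, chosen after seeing the data, gave 1 to 5 calls with each 300 mg/kg array left out in turn, Proc among them each time and 5 without replicate 2. Over 21 alternatives Proc ranged from -0.57 to -0.48 and was called in 8, Akr1e2 from 0.22 to 0.29 and called in 9, and Asap2 from -0.37 to -0.28 and called in 8; the cause of the lost calls was not tested.

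Some values changed sign. With each array left out in turn, and lowest without replicate 3, the log2 difference ran from -0.021 to 1.43 for Cpt1b, from -0.28 to 1.53 for Adipoq, from -0.59 to 1.84 for Fabp4, from -0.22 to 2.26 for Cfd and from -0.034 to 0.92 for Cidec. With the brown fat list mean as a covariate it was -0.019 for Cidea, -0.041 for Cpt1b, -0.018 for Cox7a1, -0.22 for Adipoq, -0.67 for Fabp4 and -0.21 for Cfd, 3 of which are among the 4 genes of that mean. Sqstm1 was at 0.0011 as the mean over its probe sets, and the cause was not tested. The number of arrays and the dimness of a probe set limit what could be detected.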
